A study of Mus musculus with 16 samples.

Results

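Cystatins are inhibitors of cysteine proteases of the papain family, the group that holds most cathepsins. The *Cst* genes of mouse chromosome 2 encode small secreted proteins, whereas *Cstb* on chromosome 10 encodes cystatin B, a stefin that stays inside the cell. *Cst3* encodes cystatin C, which is made by most cell types. *Cst9* encodes testatin, known from the supporting cells of the developing testis, and *Cst8* encodes CRES, the cystatin-related epididymal spermatogenic protein. CRES and its relatives lack part of the sequence that typical cystatins use to hold papain-like proteases.

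The genes described here are *Cst9*, *Cst12*, *Cst8*, *Cst3* and *Cstb*, 5 of the 30451 genes counted. They were chosen from the readout, since *Cst9* and *Cst12* were among the leading genes of Sertoli cell clusters and *Cst8* of Leydig cell clusters in earlier analyses of the same cells, and *Cst3* and *Cstb* are further members of the family. Their levels by cell type are therefore a description, and nothing was tested on them.

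The cells came from dissociated whole testes of mice at postnatal day 2 (P2), from wild-type males and from males with a germ-cell-specific *Ddx5* knockout, in which Cre under the *Mvh* promoter deletes floxed *Ddx5*. An Oct4-GFP transgene marked germ cells in the study. A germ cell promoter is not meant to act in Sertoli, Leydig, myoid or stromal cells. Each captured transcript was counted once near its 3′ end by a unique molecular identifier (UMI). The labels number 8 libraries per genotype, but the table separates only 2 barcode suffixes, so that each genotype counted as 1 library and no p-value is given. Barcodes with suffix 3 were assigned to wild type, those with suffix 4 to the library labelled *Ddx5* knockout, called below the library labelled knockout. The wild-type library held 84263163 UMIs over 6763 barcodes and the other 67558106 UMIs over 5423 barcodes, and 12 barcode sequences occurred in both. CRE had 0 UMIs in the kept wild-type cells and 20 in those of the other library, and GFP had 456 and 22. *Ddx5* in germ cells, gated as given below, went against the label. It was at 1152 UMIs per 1000000 (CPM) in wild type, against 1736 CPM in the library labelled knockout. Counts at the 3′ end need not cover the deleted part. Of these germ cells 40 of 125 in wild type also passed a Sertoli or Leydig gate, against 0 of 12 in the other library. By single-cell qRT-PCR the paper reported much less *Ddx5* mRNA in sorted knockout gonocytes. Since the *Ddx5* counts here went against the label, the library with suffix 4 is named by its label throughout.

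A cell was kept when it had 2000 genes or more and no more than 10% of its UMIs were mitochondrial, which left 6329 in wild type, against 4950 in the library labelled knockout, with median depths of 11170 and 11668.5 UMIs. Cell types were gated on UMIs of markers. Sertoli cells, the nurse cells of the germ line inside the cords, had at least 3 UMIs of *Amh* and numbered 2256 in wild type, against 1635 in the library labelled knockout. Leydig cells, the androgen-producing cells between the cords, had at least 20 UMIs of *Cyp11a1*, *Cyp17a1* and *Hsd3b1* together and numbered 177 and 143. The myoid gate (*Acta2* of at least 5, *Myh11* of at least 2) took 764 and 524 cells, the stroma gate (*Pdgfra* of at least 1, *Amh* of at most 2) 3590 and 3005, and the germ cell gate (at least 3 of *Dazl*, *Ddx4*, *Mael* and *Stk31*) 125 and 12. Macrophage-like cells, gated in the same way on at least 3 of 4 macrophage markers, numbered 30 and 22. In both libraries 8 of 8 Sertoli markers, 5 of 6 Leydig markers and 6 of 6 macrophage markers were highest in the gate of their own name, and 4 of 6 germ cell markers were. The sum of 5 red cell genes was higher in the library labelled knockout in Leydig cells (1418 against 5.31 CPM), in stroma (1007 against 76.5 CPM) and in Sertoli cells (322 against 146 CPM). It was lower there in macrophage-like cells (8.22 against 2810 CPM). Its part in the ratios between the libraries was not tested.

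The gates overlap. Of all kept cells 1356 passed more than 1 gate, mostly myoid with stroma, and the overlaps that touch the cystatins are those with Sertoli and Leydig cells. Sertoli and Leydig gates shared 7 wild-type cells and 12 of the library labelled knockout, and 39 of the 125 wild-type germ cells also passed the Sertoli gate. Values are given with the gates as stated, and where the overlap matters also over cells that passed no other Sertoli, Leydig or germ cell gate, a choice made after the overlaps were seen. All levels are CPM within the cells of a gate. A captured transcript gives 1 UMI whatever its length, but the share of transcripts captured was not measured for any gene. Levels of different genes are therefore set side by side as counts only. Every interval is at 95% and covers counting error alone; levels have exact Poisson intervals, ratios exact conditional binomial ones, and shares of cells exact binomial (Clopper-Pearson) ones.

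Of the 5 genes 4 lie within the cystatin cluster of chromosome 2, which is shown first because its neighbours were counted in different cells. In GENCODE M21 on GRCm38 the cluster spans 125335 bp and holds 9 protein-coding genes. *Cst12* (ENSMUSG00000027443.10) lies at chr2:148789361-148793546 on the plus strand, *Cst8* (ENSMUSG00000027442.10) at chr2:148798785-148805595 on the plus strand, *Cst9* (ENSMUSG00000027445.3) at chr2:148835147-148838738 on the plus strand and *Cst3* (ENSMUSG00000027447.6) at chr2:148871722-148875692 on the minus strand. *Cstb* (ENSMUSG00000005054.7) lies apart, at chr10:78425669-78427622 on the plus strand. The longest run of bases that transcripts of any pair of the 5 genes share was 8 to 13 over the 10 pairs, which is shorter than a read.

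The 250 bases before the RefSeq start site on GRCm38.p6 are printed for the 4 genes of the cluster, 5′ to 3′ on the strand of the gene, because a Sertoli cell gene (*Cst12*), a Leydig cell gene (*Cst8*), another Sertoli cell gene (*Cst9*) and a broadly counted gene (*Cst3*) follow each other here. Capitals mark matches, on either strand, to the NR5A1 motif spelled AAGGTCA, a SOX motif spelled ACAAAG, its other form with the letters ACAATG, the GATA factor motif spelled AGATAA and the TATA box, searched as TATAAA. The stretches are chr2:148789115-148789364 for *Cst12*, chr2:148798589-148798838 for *Cst8*, chr2:148834897-148835146 for *Cst9* and chr2:148875513-148875762 on the minus strand for *Cst3*.
Cst12: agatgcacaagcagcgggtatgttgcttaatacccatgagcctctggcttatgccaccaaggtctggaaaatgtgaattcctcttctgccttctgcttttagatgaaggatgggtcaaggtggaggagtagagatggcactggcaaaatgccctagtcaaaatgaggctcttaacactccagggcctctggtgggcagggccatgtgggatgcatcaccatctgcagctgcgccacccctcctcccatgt
Cst8: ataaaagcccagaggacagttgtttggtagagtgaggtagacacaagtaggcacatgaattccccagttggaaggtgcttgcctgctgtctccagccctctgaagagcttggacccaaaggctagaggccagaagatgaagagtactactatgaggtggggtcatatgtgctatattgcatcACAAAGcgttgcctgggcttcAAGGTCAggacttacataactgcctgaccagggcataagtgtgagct
Cst9: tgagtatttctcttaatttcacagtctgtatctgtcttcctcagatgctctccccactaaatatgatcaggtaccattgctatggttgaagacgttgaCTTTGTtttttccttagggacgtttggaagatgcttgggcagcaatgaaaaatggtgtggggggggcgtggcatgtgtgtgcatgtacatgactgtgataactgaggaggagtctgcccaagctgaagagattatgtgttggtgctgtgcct
Cst3: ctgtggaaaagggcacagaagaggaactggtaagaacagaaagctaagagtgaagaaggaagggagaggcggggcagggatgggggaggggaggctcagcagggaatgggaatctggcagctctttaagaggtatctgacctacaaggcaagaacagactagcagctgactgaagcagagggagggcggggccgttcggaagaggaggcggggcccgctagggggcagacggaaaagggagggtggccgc

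NR5A1 is a nuclear receptor of steroid-producing and Sertoli cells, and SOX9 is a factor of Sertoli cells. The *Cst8* stretch held the NR5A1 motif 47 bases before the RefSeq start site and the SOX motif ACAAAG 68 bases before it. The GENCODE starts given above differ from the RefSeq ones for *Cst12*, *Cst8* and *Cst3*, whose printed stretches end inside the GENCODE gene. The NR5A1 match of *Cst8* lies inside that gene as GENCODE places it, and the SOX match of *Cst8* lies before it. The *Cst9* stretch held the reverse of ACAAAG 152 bases before the start site. A second match of *Cst9* lay 35 bases after the start, outside the letters printed. The *Cst12* and *Cst3* windows held no match. All windows searched ran from 250 bases before to 50 after the start. Of 32851 such promoter windows of 300 bases, 4.72% held the NR5A1 motif, 18.7% the SOX motif, 12.6% its other form, 11.2% the GATA factor motif and 13.6% the TATA box, on either strand. A match is a run of letters and is not shown to be bound.

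Along the chromosome the level of the cystatins switched from gene to gene. *Cstl1* had 0 UMIs in all kept cells. *Cst11*, next to it, was counted at 7.69 CPM in wild-type Sertoli cells and 8.33 CPM in those of the library labelled knockout, and at no more than 1.78 CPM in any other type. *Cst12*, *Cst8* and *Cst9* were the abundant ones, in Sertoli cells, Leydig cells and again Sertoli cells in that order. *Cst13*, between *Cst8* and *Cst9*, had 59 UMIs in all and its highest level in Leydig cells, at 1.99 CPM in wild type, against 7.31 CPM in the library labelled knockout. 8030411F24Rik and 9230104L09Rik, the other two genes of the cluster, had no entry in the table under these symbols.

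**Figure D1:**
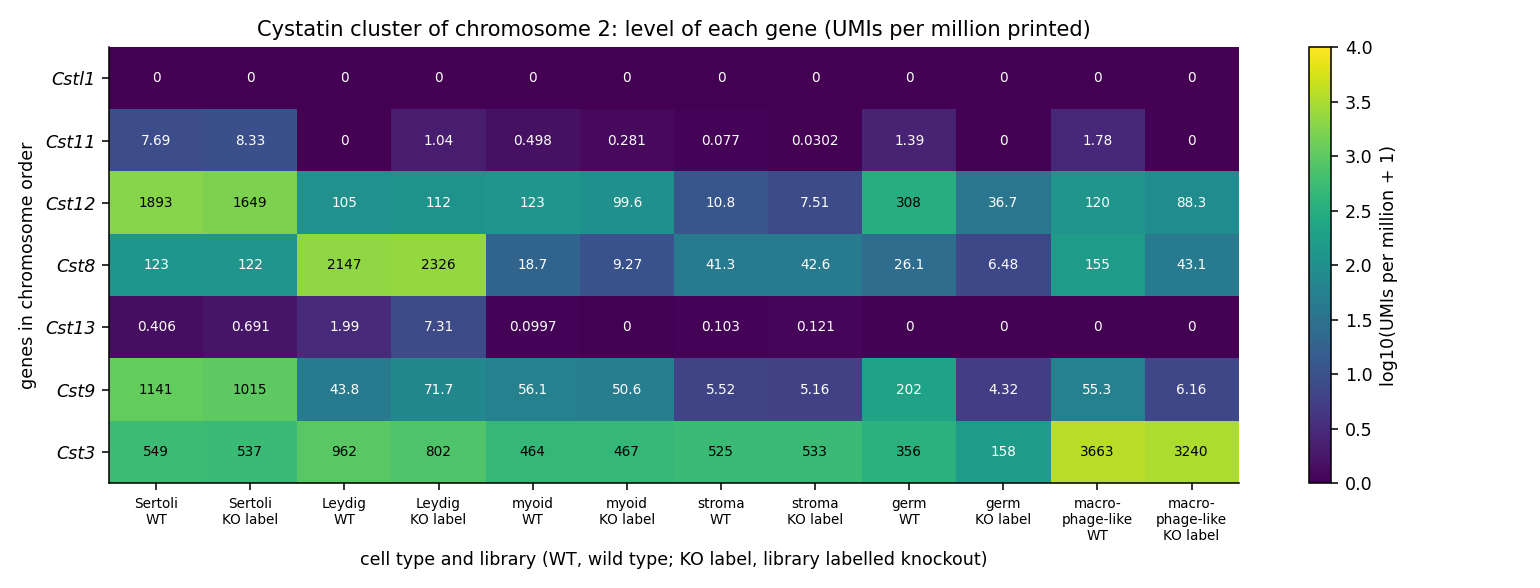
Levels of the genes of the chromosome 2 cluster that the table holds, in chromosome order from top to bottom, by cell type and library (columns). Colour is log10(CPM + 1) and the printed number is the CPM with the gates as stated; *Cst12* and *Cst9* are highest in Sertoli cells and *Cst8*, which lies between them, in Leydig cells.

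*Cst12* and *Cst9* were the cystatins of Sertoli cells. *Cst12* reached 1893 CPM (interval 1879 to 1907) in wild-type Sertoli cells and 1649 CPM (1634 to 1664) in those of the library labelled knockout. *Cst9* stood at 1141 CPM (1130 to 1152) and 1015 CPM (1004 to 1027). Between 98.4% and 98.7% of all UMIs of either gene in kept cells lay in the Sertoli gate, and the Sertoli level was 5.66 times (*Cst9*) and 6.14 times (*Cst12*) that of the next type in wild type, germ cells, and 14.2 and 14.8 times that of Leydig cells in the library labelled knockout.

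Nearly every Sertoli cell held both transcripts. In wild type 2242 of 2256 cells (99.4%) had a UMI of *Cst9* and of *Cst12*, 3 had *Cst9* without *Cst12*, 9 had *Cst12* without *Cst9* and 2 had neither. In the library labelled knockout 1628 of 1635 cells (99.6%) had both and 0 had neither. The median cell held 16 UMIs of *Cst9* and 29 of *Cst12* in wild type, with highest counts of 106 and 150, and 15 and 28 in the library labelled knockout, with highest counts of 81 and 106. In stroma, which should lack both genes, 4.74% of wild-type cells had a UMI of *Cst9* and 7.63% one of *Cst12*, at a median depth of 9838.5 UMIs against 13711 in Sertoli cells. In the library labelled knockout these shares of stroma were 4.19% and 6.09%, at depths of 9933 and 15847 UMIs.

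Relative to their Sertoli levels, *Cst9* and *Cst12* were about as low in stroma as *Amh* and *Fshr*, and the other Sertoli cell genes listed were relatively higher there. Over cells that passed no other gate of Sertoli, Leydig or germ cells, *Cst9* in wild-type stroma was at 0.46% of its Sertoli level and *Cst12* at 0.52%, beside 0.46% for *Amh* (the hormone that removes the Müllerian ducts, and a gate gene), 0.83% for *Rhox8* (a homeobox gene), 2.99% for *Aard* and 3.62% for *Cldn11* (a tight junction gene). As gated, *Sox9* was at 18.3 CPM in wild-type stroma beside 261 CPM in Sertoli cells, *Wt1* at 10.98 beside 253 CPM and *Inha* at 35.4 beside 1955 CPM, while *Fshr* was at 0.15 beside 31.8 CPM. Stroma of the library labelled knockout had 0.51% for *Cst9* and 0.44% for *Cst12*.

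Most counts of *Cst9* and *Cst12* in Leydig, myoid and wild-type germ cells came from cells that also passed another gate of Sertoli, Leydig or germ cells. Overlaps of these types with the stroma and myoid gates were not counted here. In wild-type Leydig cells 125 of 132 *Cst9* UMIs (94.7%) lay in 8 such cells, and in the library labelled knockout 181 of 206 (87.9%) lay in 12. As gated, *Cst9* was at 43.8 and 71.7 CPM in Leydig cells and *Cst12* at 105 and 112 CPM, and without such cells *Cst9* was at 2.52 and 9.94 CPM and *Cst12* at 16.2 and 26.3 CPM. In wild-type germ cells 806 of 871 *Cst9* UMIs (92.5%) lay in 40 of the 125 cells, and the level without them was 24.1 CPM in place of 202 CPM. Myoid cells held 56.1 CPM and 50.6 CPM of *Cst9* as gated and 3.95 CPM and 3.69 CPM without such cells.

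The order of the lower levels was not fixed. With the gates as stated the *Cst9* levels of myoid, macrophage-like and Leydig cells in wild type had overlapping intervals from each to the next, and so did those of *Cst12*. In the library labelled knockout, *Cst9* did not separate macrophage-like, stroma and germ cells, and *Cst12* did not separate Leydig, myoid and macrophage-like cells.

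**Figure D2:**
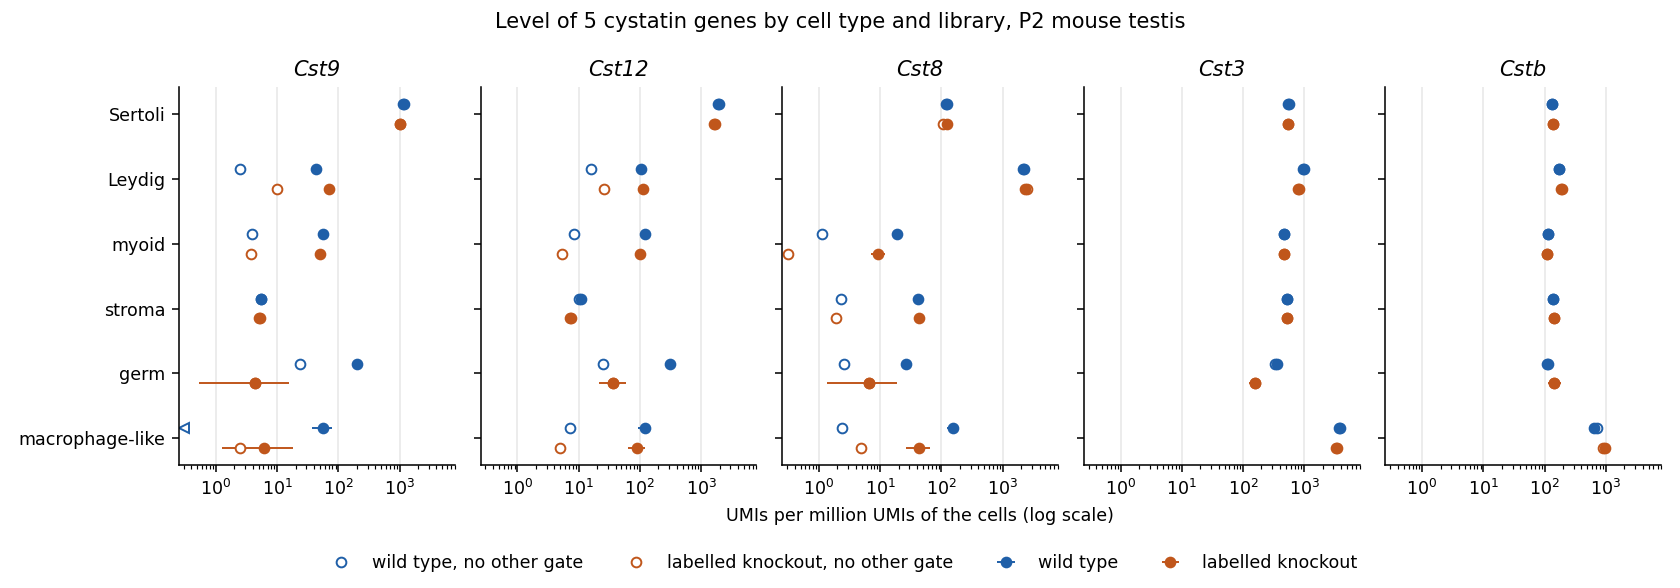
Level of each cystatin by cell type, in CPM on a log axis, for wild type and the library labelled knockout. Filled symbols are the gates as stated with the 95% Poisson interval, open symbols the cells of no other Sertoli, Leydig or germ cell gate, and a left arrow marks 0 UMIs; Sertoli cells lead for *Cst9* and *Cst12*, Leydig cells for *Cst8* and macrophage-like cells for *Cst3* and *Cstb* in both libraries.

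The gate itself sits on a steep part of the *Cst9* and *Cst12* levels. Wild-type cells with 0 UMIs of *Amh* had 4.49 CPM of *Cst9* and 8.67 CPM of *Cst12*, and those with 1 UMI had 56.2 and 81.0 CPM. Just outside the gate, 39 cells with 2 UMIs of *Amh* had 488 and 957 CPM, and just inside, 51 cells with 3 UMIs had 743 and 1215 CPM. In the library labelled knockout, 19 cells with 2 UMIs had 487 and 847 CPM and 24 cells with 3 UMIs had 668 and 1448 CPM. Both libraries therefore hold a few cells below the gate that carry both transcripts at once, 66.7% and 73.7% of the cells with 2 UMIs of *Amh*.

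*Cst12* was the more even of the pair from cell to cell. After each cell was thinned to 5000 UMIs, which left out 19 wild-type Sertoli cells and 4 of the library labelled knockout, the 1233 non-cycling wild-type cells held a median of 11 UMIs of *Cst12* (quartiles 8 and 15, highest 28) and 6 of *Cst9* (quartiles 3 and 10, highest 45). The variance over the mean was 2.26 for *Cst12*, 3.43 for *Cst9*, 1.33 for *Cst3* and 0.96 for *Cstb*, where counting alone gives 1. In the 830 non-cycling cells of the library labelled knockout it was 2.80 for *Cst12* and 3.24 for *Cst9*. Spearman's rho between *Cst9* and *Cst12* over these thinned cells was 0.13 in wild type, against 0.10 in the other library, with all cells of a library sharing its capture. Summed over Sertoli cells, the ratio of *Cst12* to *Cst9* UMIs was 1.66 (interval 1.64 to 1.68) in wild type and 1.62 (1.60 to 1.65) in the library labelled knockout.

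**Figure D3:**
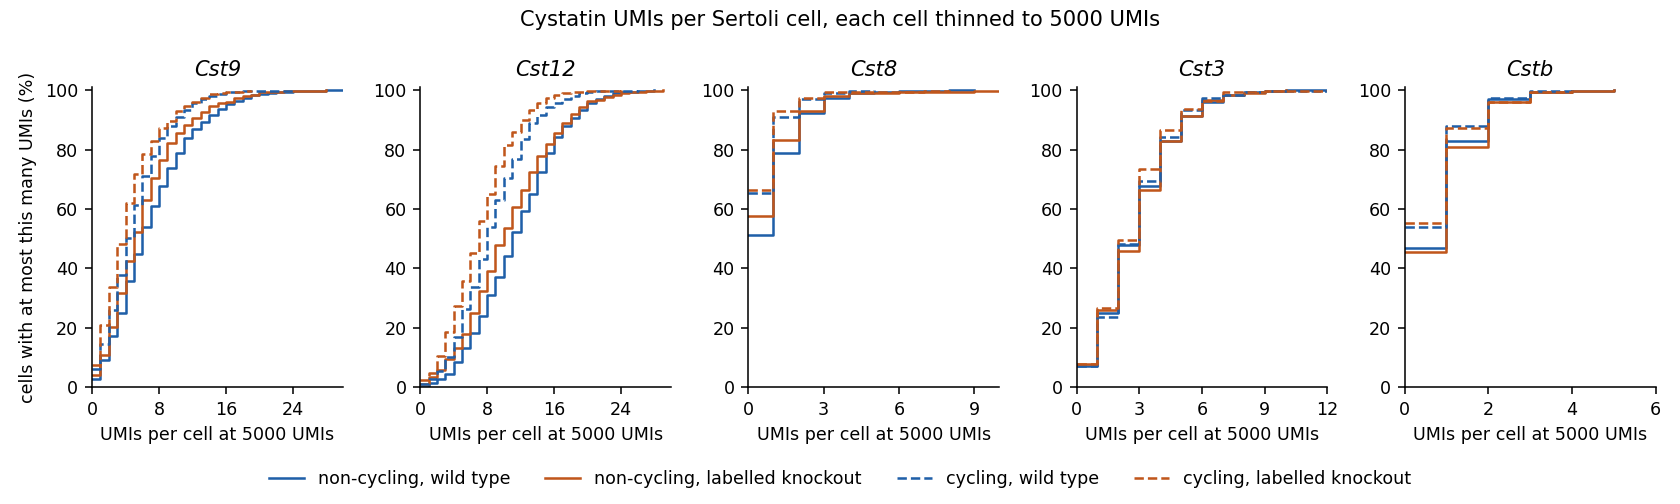
Share of Sertoli cells (vertical axis, percent) with at most a given number of UMIs of each cystatin (horizontal axis, cut at 30 UMIs for *Cst9*) after thinning every cell to 5000 UMIs, for non-cycling (solid) and cycling cells (dashed) of wild type (blue) and the library labelled knockout (orange). The *Cst12* curve of non-cycling wild-type cells crosses 50% at 11 UMIs and that of *Cst9* at 6, that of *Cst8* lies above 50% at 0, and the dashed curves of *Cst9*, *Cst12* and *Cst8* lie to the left of the solid ones.

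*Cst8* was the cystatin of Leydig cells, with a second, lower level in Sertoli cells. It reached 2147 CPM (interval 2095 to 2200) in wild-type Leydig cells and 2326 CPM (2271 to 2383) in those of the library labelled knockout, above *Cst3* in the same cells. The median Leydig cell held 32 UMIs in wild type, against 42 in the other library, with highest counts of 146 and 151, and 99.4% and 99.3% of the cells had at least 1. Levels of single Leydig cells ran from 0 over a median of 2055 CPM to 7361 CPM in wild type and from 0 over 2137 to 12267 CPM in the library labelled knockout. The next level was 155 CPM in macrophage-like cells of wild type and 122 CPM in Sertoli cells of the other library, so that Leydig cells were 13.8 and 19.1 times higher. The macrophage-like value rested on cells that also passed a Sertoli, Leydig or germ cell gate, and without them it was 2.42 CPM; with them its interval overlapped that of Sertoli cells.

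Sertoli cells held *Cst8* at 123 CPM (120 to 127) in wild type and 122 CPM (118 to 126) in the library labelled knockout, and 72.4% and 72.5% of them had a UMI. They are many, and they held 41.7% and 36.0% of all *Cst8* UMIs in kept cells, against 59.2% and 68.2% in the Leydig gate, shares that overlap where the gates do. Over cells of no Leydig or germ cell gate the Sertoli level was 120 and 106 CPM, which is 5.35% and 4.30% of the Leydig level. The Leydig hormone gene *Insl3* was at 0.04% of its Leydig level in the same Sertoli cells, and *Star*, which carries cholesterol into mitochondria, was at 1.98% and 1.31%. *Fdx1*, which passes electrons to steroid-making enzymes, was at 3.66% and 3.29%. *Scarb1*, a lipoprotein receptor, was less confined to Leydig cells. In all gated Sertoli cells it was at 136 CPM in wild type, beside 325 CPM in Leydig cells. In the library labelled knockout it was at 126 beside 369 CPM. *Hsd17b3*, also on the list of Leydig markers, went the other way, at 313 CPM in wild-type Sertoli cells beside 11.6 CPM in Leydig cells. In the library labelled knockout it was at 312 beside 22.3 CPM. In stroma *Cst8* was at 0.10% and 0.08% of the Leydig level. As gated, stroma held 41.3 and 42.6 CPM, and it shared 44 and 29 cells with the Leydig gate, without which it held 2.28 and 1.92 CPM.

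*Cst8* was also counted in Sertoli cells with 0 UMIs of 4 Leydig cell genes. In the 1844 wild-type Sertoli cells with 0 UMIs of *Insl3*, *Cyp17a1*, *Cyp11a1* and *Hsd3b1*, *Cst8* was at 118 CPM (114 to 122) and 71.2% of the cells had a UMI (69.1% to 73.3%). In the 1257 such cells of the library labelled knockout it was at 107 CPM (103 to 111), with a UMI in 71.4% (68.8% to 73.8%). That level lay below the 122 CPM of all gated Sertoli cells there, of which these cells are a part. It lay beside the 106 CPM of those in no Leydig or germ cell gate. Stroma cells chosen the same way had 1.42 and 1.25 CPM, with a UMI in 1.29% and 1.196% of the cells at median depths of 9701 and 9848.5 UMIs against 13426 and 15523 in the Sertoli cells. At an equal depth of 5000 UMIs, 43.0% of all wild-type Sertoli cells held *Cst8*, against 2.19% of stroma cells (1.73% to 2.72%). These shares were 38.6% and 1.93% in the library labelled knockout. Among wild-type non-cycling Sertoli cells the share was 48.7% (45.8% to 51.5%).

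*Cst3* was counted in every cell type. Its level was 549 CPM (542 to 557) in wild-type Sertoli cells, 525 CPM (518 to 533) in stroma, 464 CPM (450 to 477) in myoid cells and 356 CPM (339 to 375) in germ cells, and higher in Leydig cells at 962 CPM (928 to 998). Macrophage-like cells had the highest level of the 6 types, 3663 CPM (3507 to 3825), which was 3.81 times that of Leydig cells. The library labelled knockout gave the same leading order, with 3240 CPM in macrophage-like cells, 802 CPM in Leydig cells, and 537 CPM in Sertoli cells and 533 CPM in stroma with overlapping intervals. Single macrophage-like cells of wild type ran from 972 over a median of 3574 to 8651 CPM.

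*Cstb* was also counted in every cell type, at a lower level than *Cst3* in each of the 6, with overlapping intervals in the 12 germ cells of the library labelled knockout. It was at 171 CPM (157 to 187) in wild-type Leydig cells, 137 CPM (133 to 141) in stroma, 133 CPM (130 to 137) in Sertoli cells, 113 CPM (107 to 120) in myoid cells and 112 CPM (102 to 123) in germ cells. Macrophage-like cells stood apart at 633 CPM (569 to 703), 3.70 times the Leydig level, and at 955 CPM (870 to 1046) in the library labelled knockout, 5.10 times. Stroma and Sertoli cells, and myoid and germ cells, had overlapping intervals in wild type. In the library labelled knockout the intervals ran into each other from Leydig (187 CPM) over germ (145 CPM) and stroma (141 CPM) to Sertoli cells (137 CPM).

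Sertoli cells that divide were compared with those that do not, a split on *Mki67* and *Top2a* (at least 4 UMIs together, or at most 1) that uses none of the cystatins. Of the 5 members 1 was past 1.5-fold in wild type, *Cst8*, where 13.4% of the 12990 genes with at least 50 UMIs were, and the same 1 of 5 was in the library labelled knockout, where 12.8% of 12313 genes were. These shares lie near the background. Relative to all UMIs, *Cst8* was 0.621 times as high in cycling as in non-cycling cells of wild type (0.583 to 0.660), at 96.1 against 155 CPM. *Cst9* was 0.704 times as high (0.690 to 0.718), at 953 against 1355 CPM, and *Cst12* 0.727 times (0.716 to 0.739), at 1606 against 2208 CPM.

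The same ratios in the library labelled knockout were 0.606 for *Cst8*, 0.727 for *Cst9* and 0.697 for *Cst12*. In wild type 4.71% of the tested genes had a lower ratio than *Cst9*, 5.91% a lower one than *Cst12* and 2.02% a lower one than *Cst8*. *Cst3* was nearer to even, at 0.929 (0.903 to 0.956) and 0.930 in the 2 libraries, and *Cstb* lay between, at 0.825 (0.778 to 0.875) and 0.818. Other Sertoli cell genes gave ratios of 0.641 (*Rhox8*), 0.718 (*Aard*) and 0.860 (*Amh*) in wild type.

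Counted per cell, *Cst9* and *Cst12* were higher and not lower in cycling cells. Cycling wild-type cells held 21729 UMIs on average and non-cycling ones 13082, a ratio of 1.66. A cycling cell held 20.7 UMIs of *Cst9* against 17.7 (ratio 1.17, interval 1.15 to 1.19), 34.9 of *Cst12* against 28.9 (1.21, 1.19 to 1.23) and 2.09 of *Cst8* against 2.03 (1.03, 0.969 to 1.10). *Cst3* was higher still per cell, at 11.6 against 7.49 UMIs (1.54), and *Cstb* at 2.63 against 1.92 (1.37). In the library labelled knockout the ratios per cell were 1.09 for *Cst9*, 1.04 for *Cst12*, 0.907 for *Cst8*, 1.39 for *Cst3* and 1.22 for *Cstb*, beside 1.496 for all UMIs. The split is on UMIs of *Mki67* and *Top2a* that were not scaled to depth, so deeper cells reach the cycling limit more easily, and how much of the difference in total UMIs, and of the ratios per cell, comes from this was not tested.

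**Figure D4:**
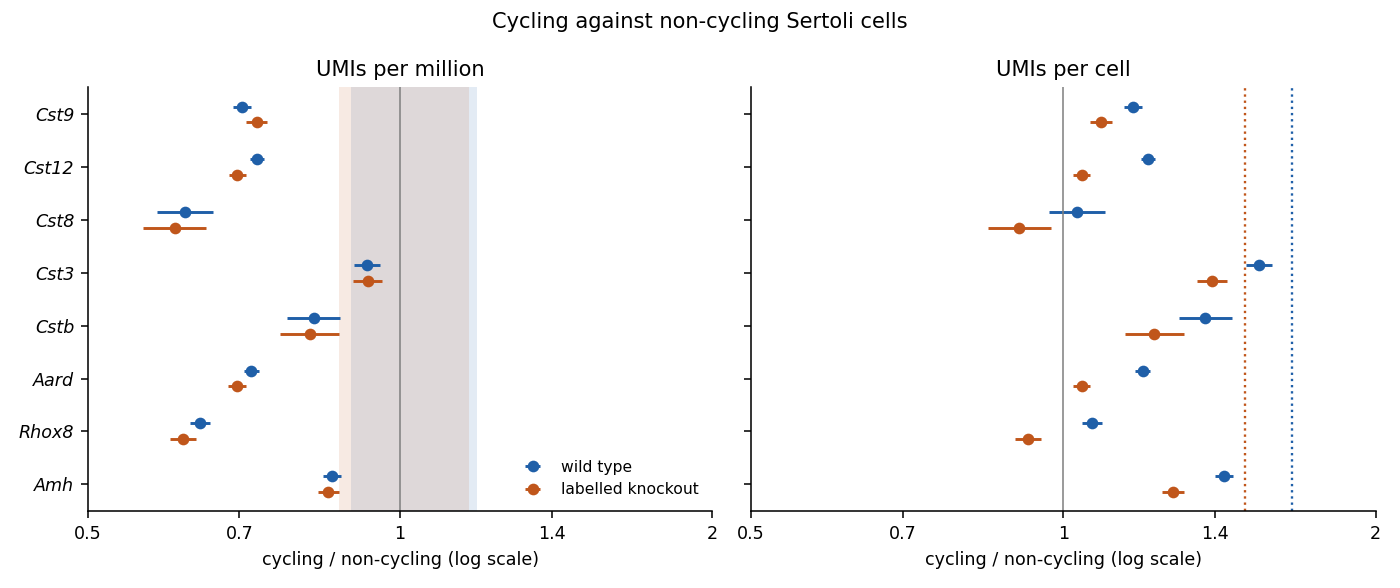
Ratio of cycling over non-cycling Sertoli cells for each cystatin and for *Aard*, *Rhox8* and *Amh*, in CPM (left) and in UMIs per cell (right), on a log axis with 95% intervals, in wild type and the library labelled knockout. The shaded band gives the quartiles of all tested genes in CPM and the dotted lines the ratio of total UMIs per cell (1.66 and 1.496); *Cst9*, *Cst12* and *Cst8* lie below 1 in CPM, and *Cst9* and *Cst12* above 1 per cell.

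Between the libraries the cystatins of Sertoli cells differed by less than 1.5-fold. In Sertoli cells 0 of 5 members passed that limit, where 7.42% of 14275 genes did. *Cst12* in the library labelled knockout was 0.871 times its wild-type level (0.861 to 0.882; 47734 against 69936 UMIs) and *Cst9* 0.890 times (0.877 to 0.903; 29386 against 42150 UMIs). Lower ratios were found for 17.1% and 20.2% of the tested genes, so that many genes shifted as far between these libraries. *Cst8* (0.989, 0.946 to 1.03) and *Cstb* (1.03, 0.987 to 1.07) had intervals that hold 1 with the gates as stated, and *Cst3* was at 0.977 (0.957 to 0.998). Over Sertoli cells of no Leydig or germ cell gate the ratio of *Cst8* was 0.880 (0.839 to 0.922), and in cells thinned to 5000 UMIs it was 0.881 (0.812 to 0.955), so that its interval then lay below 1. Of the 5 genes closest to *Cst9* in pattern, *Rhox8* was at 946 CPM in wild-type Sertoli cells, against 700.2 CPM in the library labelled knockout, *Aard* at 1685 against 1595, *Tmem184a* at 408 against 434, *Kctd14* at 910.4 against 1076 and *Kazald1* at 409 against 418, so that they did not move one way.

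In Leydig cells 1 of 5 members was past 1.5-fold, where 5.95% of 8989 genes were. This was *Cst9*, at 1.63 times its wild-type level (1.31 to 2.05), on 206 against 132 UMIs of which most lay in cells that also passed the Sertoli gate. *Cst8* was at 1.08 (1.05 to 1.12; 6687 against 6467 UMIs), with 69.2% of tested genes lower, and *Cst3* at 0.833 (0.789 to 0.880), with 14.3% lower. Among Leydig markers in the same cells *Insl3* was at 0.588, *Star* at 1.204 and *Fdx1* at 1.07, *Lhcgr* stood at 199 CPM in wild type, against 219 CPM in the other library, and *Scarb1* at 325 against 369 CPM. *Hsd17b3*, the listed Leydig marker that was higher in Sertoli cells, stood at 11.6 CPM in wild type, against 22.3 CPM in the other library. With the limit on mitochondrial UMIs at 5%, which keeps only 42 and 30 Leydig cells, the ratio of *Cst8* was 1.26.

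In the other types the members past 1.5-fold were few or rested on few UMIs. In myoid cells 1 of 5 was, where 4.62% of 11847 genes were, namely *Cst8* at 0.495 (0.368 to 0.658; 66 against 188 UMIs), and 178 of the 188 and 64 of the 66 UMIs lay in the 41 and 23 cells that also passed a Sertoli, Leydig or germ cell gate. In stroma 0 of 5 were, where 5.29% of 15014 genes were, and *Cst12* was lowest at 0.694 (0.591 to 0.813). In macrophage-like cells 2 of the 4 members with at least 50 UMIs were, where 13.9% of 3197 genes were: *Cstb* was at 1.51 (1.31 to 1.74) and *Cst8* at 0.278 (0.164 to 0.452). Without the cells that also passed one of these gates *Cstb* was at 1.24 (1.06 to 1.45), and *Cst8* had 1 and 2 UMIs left.

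Germ cells give no firm comparison, since the library labelled knockout has 12 of them. There 4 of 5 members were past 1.5-fold, all lower, where 70.1% of 9380 genes were. *Cst9* was at 0.0214 and *Cst12* at 0.119 of the wild-type level, on 2 and 17 UMIs, and *Cst3* was at 0.442 on 73. Of the wild-type cells 40 also passed the Sertoli or Leydig gate and 0 of the 12 others did, and without those 40 cells the ratio of *Cst12* was 1.46 (0.803 to 2.51) and that of *Cst3* 0.465 (0.361 to 0.590).

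**Figure D5:**
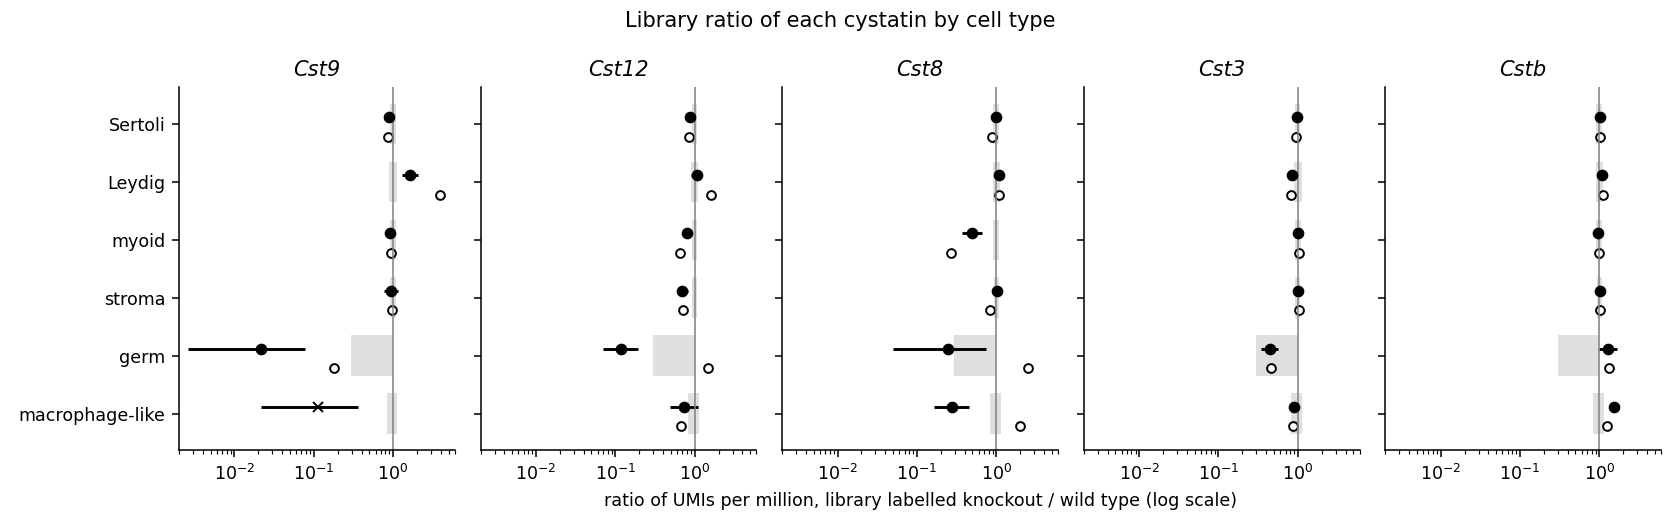
Ratio of the library labelled knockout over wild type for each cystatin and cell type, in CPM on a log axis. Filled symbols are the gates as stated with the 95% interval, a cross marks a gene under 50 UMIs, open circles are the cells of no other Sertoli, Leydig or germ cell gate, and grey bands are the quartiles of all tested genes; the filled Sertoli symbols lie between 0.871 and 1.03, and the largest shifts are those of germ cells and of genes counted mainly in overlap cells.

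Cathepsins and related genes, of which the papain-like members are the proteases that typical cystatins are known to hold, were counted in the same cells. Whether the products of *Cst8*, *Cst9* or *Cst12* hold any of them was not tested. Of 27 listed cathepsins and relatives 21 were in the table, 20 had a UMI and 10 reached 100 CPM in some gate. *Ctsl*, encoding cathepsin L, was by far the highest in Sertoli cells, at 3648 CPM in wild type, against 3516 CPM in the library labelled knockout, above *Cst12* and *Cst9* in both and at 368 to 659 CPM in the other wild-type types. *Ctsb* was at 176 CPM in wild-type Sertoli cells and *Ctsd*, an aspartic protease, at 101.5 CPM. In Leydig cells *Ctsl* (406 CPM), *Ctsd* (362 CPM), *Ctsb* (187 CPM) and *Ctsf* (179 CPM) led in wild type, all below *Cst8*, and *Ctsf* was highest in Leydig cells. Macrophage-like cells, which led for *Cst3* and *Cstb*, also held the highest *Ctsd* (4600 CPM), *Ctsb* (3621 CPM), *Lgmn* (2136 CPM) and *Ctss* (1326 CPM) of wild type. *Lgmn* encodes legumain, an asparagine-cutting protease that some cystatins also inhibit.

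In Sertoli cells 3 of the 14 tested genes of this list were past 1.5-fold between the libraries, where 7.42% of all tested genes were, *Ctsh* higher at 1.95 (1.86 to 2.06; 3716 against 2429 UMIs) and *Ctsc* and *Ctss* lower on 24 against 99 and 25 against 69 UMIs, and their median ratio was 0.93 beside 0.99 over all tested genes. *Ctsc* and *Ctss* were highest in macrophage-like cells, at 582 and 1326 CPM in those of wild type. Of the macrophage-like cells, 5 of 30 from wild type also passed a Sertoli, Leydig or germ cell gate, against 2 of 22 from the other library. How many of the *Ctsc* and *Ctss* UMIs of the Sertoli and Leydig gates lay in such cells was not tested. The ratio of *Ctsh* was the same in non-cycling Sertoli cells (1.95) and 1.99 in cycling ones. In Leydig cells 2 of 13 were past 1.5-fold, against 5.95% of tested genes, with a median ratio of 1.10 beside 1.001. Both rested on few UMIs. *Ctss* was higher in the library labelled knockout on 33 against 23 UMIs, and *Ctsk* lower on 27 against 47. Between cycling and non-cycling Sertoli cells 1 of 14 was past 1.5-fold in wild type (13.4% of tested genes), *Ctsf* at 0.647. In the library labelled knockout 3 of 12 were (12.8% of tested genes), *Ctse* higher and *Ctsd* and *Ctsf* lower.

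The other cystatins were scarce. Of 30 listed symbols 22 were in the table and 21 had a UMI, 4 of them under 10 UMIs (*Csta1*, *Cstdc6*, *Kng1* and *Spp2*), and 0 reached 100 CPM in any gate. The highest in Sertoli cells was *Ahsg*, fetuin A, at 15.6 CPM in wild type. Of 9 tested in Sertoli cells 4 were past 1.5-fold between the libraries, where 7.42% of all tested genes were. These 4 were higher in the library labelled knockout (*Csta2*, *Stfa2*, *Stfa2l1* and *Cstdc5*), at levels of no more than 7.7 CPM, and the median ratio of the 9 was 1.497. Of the UMIs of *Stfa2* in the Sertoli gate, 41 of 41 in wild type, against 63 of 66 in the library labelled knockout, lay in 2 and 3 cells with at least 50 UMIs of *S100a8* and *S100a9*, genes known from neutrophils. For *Stfa2l1* these were 52 of 52 and 60 of 64 UMIs, and for *Cstdc5* 118 of 121 and 205 of 224. Without those cells, a choice made after the values were seen, the Sertoli gate held 0 and 3 UMIs of *Stfa2*, 0 and 4 of *Stfa2l1* and 3 and 19 of *Cstdc5*.

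The genes whose levels ran most like each member were ranked over 16 groups of cells (8 in each library) by Pearson's r of log2(CPM + 10) among 14259 genes. The groups share their library, some cells pass more than 1 gate, and r is a description. *Cst9* ran closest to *Tmem184a* (0.993), *Rhox8* (0.987), *Kctd14* (0.986), *Aard* (0.986) and *Kazald1* (0.985). *Cst12* ran closest to *Ptgds* (0.982), *Amh* (0.981), which set the gate, *Kctd14* (0.980), *Gatm* (0.972) and *Tmem184a* (0.968), and its r with *Cst9* was 0.967. *Ptgds* encodes a prostaglandin D2 synthase and *Gatm* an enzyme of creatine synthesis.

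*Cst8* ran closest to *Aldh1b1* (0.973), *Grb14* (0.963), *Ak1* (0.961), *Pank1* (0.960) and *Adcy9* (0.960). *Cst3* ran closest to *Rab7* (0.979), *Psap* (0.960), *Ctsa* (0.958), *Cyp4v3* (0.952) and *Rgs10* (0.952), of which *Rab7*, *Psap* and *Ctsa* are genes of the late endosome and lysosome. *Cstb* ran closest to *Ftl1-ps1* (0.977), a ferritin pseudogene whose reads may belong to its parent gene, 6030400A10Rik (0.975), *Tapbpl* (0.965), *Dok2* (0.963) and *Gla* (0.963). Its r with *Cst3* was 0.878, whereas *Cst3* had an r of -0.05 with *Cst9* and 0.43 with *Cst8*.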

How the data were processed

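Whole testes of P2 mice were dissociated and captured with a 3′ single-cell kit (Chromium v3). The authors deposited 1 table of UMI counts per gene and barcode, not normalized and without the study's limits on genes and mitochondrial UMIs; barcodes under 2000 genes held at least 612 and 687 UMIs. The submitters' processing notes list Cell Ranger 3.1.0, Seurat 3.1.5 and GRCm38; the annotation release is not given in the sources used here. Suffixes were matched to genotypes by setting the number of cells left by the filter beside the cell numbers in the study's methods. The 5 genes, the gates and the lists were chosen with earlier results of these data known.

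UMIs were summed over the cells of each gate in each library and scaled to a total of 1000000 (CPM). Genes were compared between groups as ratios of CPM, and a ratio was taken as past the threshold at 1.5-fold either way with at least 50 UMIs over both groups. No test was run, since cells are not replicates. Genes named beside the members were those of the lists of other cystatins and of cathepsins, the 5 most alike in pattern, and Sertoli and Leydig markers for scale. A second set of cells passed at least 3 of 4 markers for macrophage-like and endothelial-like gates; endothelial-like cells numbered 7 and 6 and are not described. Doublets were called with Scrublet and kept. Thinning drew 5000 UMIs per cell with a fixed seed. The ratio and its interval were tested on simulated data. Python 3.11.15, NumPy 2.4.6, SciPy 1.17.1, pandas 2.3.3 and scanpy 1.11.5 were used. Alternatives changed the filter, gates, doublets, scaling, thinning, thresholds and pseudocount.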

Additional observations from a re-analysis of the deposited data

Results flagged for a closer look

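*Cst9* had ratios between the libraries (labelled knockout over wild type) on opposite sides of 1, at 1.63 in Leydig cells, 0.890 in Sertoli cells and 0.0214 in germ cells. The difference between the cell types was not tested. Over cells of no other Sertoli, Leydig or germ cell gate the ratios were 3.94 (interval 1.66 to 10.8), 0.871 and 0.179, on 7 and 25 UMIs in Leydig cells.

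*Cst8* likewise was at 1.08 in Leydig cells, 0.495 in myoid cells, 0.248 in germ cells and 0.278 in macrophage-like cells, and this difference was not tested either. Without cells that also passed a Sertoli, Leydig or germ cell gate other than their own the myoid ratio was 0.273 (0.029 to 1.28), the germ cell ratio 2.50 (0.417 to 10.9) and the macrophage-like ratio 2.01 (0.105 to 119), all on 10 UMIs or fewer in each library.

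A few cells outside every gate held far more *Cst3* than any gated type. In wild type 8 cells with a UMI of each of *H2-Aa*, *H2-Ab1*, *H2-Eb1* and *Cd74*, genes of MHC class II antigen presentation, and at least 50 of them together had 2135 UMIs of *Cst3*, which is 26634 CPM (25516 to 27788) and 66.6% of all *Cst3* UMIs in the 212 cells of no gate. Single cells ran from 9524 over a median of 28254 to 38732 CPM. They also held 71 UMIs of *Irf8*, 50 of *Naaa* and 9 of *Flt3*, genes known from dendritic cells, and 0 UMIs of the B cell gene *Cd79a*. The 3 cells past the same limit in the library labelled knockout held 62 UMIs of *Cd79a* and 0 of *Flt3*, and their *Cst3* level was 559 CPM (350 to 846), so that the libraries cannot be compared in these cells.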

How the results depend on the processing

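No paired analysis was possible because the barcodes carry no replicate number and each genotype is 1 library. For the same reason no replicate could be left out. In each of the 10 alternatives every member kept its highest cell type in both libraries. The levels themselves moved more. Of 50 levels of members in the 5 main gates, 15 moved past 1.5-fold with cells of a single gate. As a mean of the CPM of single cells 11 did, without Scrublet doublets 10 and in thinned cells 10. At most 5% mitochondrial UMIs moved 9, and leaving ribosomal protein and mitochondrial UMIs out of the total moved 5. Of 50 ratios between the libraries (5 results, 10 alternatives) 40 stayed within the counting interval and 10 moved past it, and the values ran from 0.969 to 1.16 times those reported. Of 80 cycling ratios (*Cst9*, *Cst12*, *Cst3* and *Cstb* in 2 libraries) 65 stayed and 15 moved, from 0.958 to 1.05 times, and neither set held a change of direction. The ratio of *Cst8* between the libraries in Sertoli cells, 0.989 as reported, ran from 0.873 to 0.994. Of 20 cycling ratios of *Cst8* 18 stayed and 2 moved, to 0.582 in wild-type cells thinned to 5000 UMIs and 0.661 at most 5% mitochondrial UMIs in the library labelled knockout. With cells of a single gate the library ratio in Sertoli cells was 0.863 for *Cst9* and 0.847 for *Cst12*, and the wild-type cycling ratios were 0.736 and 0.756. Without Scrublet doublets the library ratios were 0.906 and 0.893. As a mean of the CPM of single cells that of *Cst9* was 0.877. In cells thinned to 5000 UMIs it was 0.862, and the wild-type cycling ratios were 0.728 (*Cst9*), 0.742 (*Cst12*) and 0.976 (*Cst3*). With no other Sertoli, Leydig or germ cell gate, an alternative added after the data were seen, the library ratios were 0.871 (*Cst9*) and 0.853 (*Cst12*) and the wild-type cycling ratios 0.727 and 0.751. At most 5% mitochondrial UMIs gave library ratios of 0.860 (*Cst12* in Sertoli cells) and 1.26 (*Cst8* in Leydig cells) and wild-type cycling ratios of 0.718 (*Cst9*) and 0.741 (*Cst12*). With ribosomal protein and mitochondrial UMIs left out of the total, the cycling ratios in wild type, then in the library labelled knockout, were 0.677 and 0.697 for *Cst9*, 0.6998 and 0.668 for *Cst12* and 0.894 and 0.892 for *Cst3*.

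Ratios that changed direction were those of few UMIs. In germ cells *Cst12* was at 1.66 with a single gate and 1.46 with no other Sertoli, Leydig or germ cell gate, and *Cst8* at 2.51, 2.50 and, thinned, 1.14. In macrophage-like cells *Cst8* was at 1.14 with at most 5% mitochondrial UMIs and 2.01 with no Sertoli, Leydig or germ cell gate. The number of genes past 1.5-fold rose, as more genes were tested, to 2039 in Sertoli cells, 1295 in Leydig cells and 2665 for wild-type cycling at 20 UMIs, and to 9458, 6955, 9844 and, for cycling in the library labelled knockout, 8360 at 1 UMI. At 2-fold these were 407, 80, 708 and 599. Of the 25 genes most alike in pattern 13 were shared at a pseudocount of 1 CPM and 16 at 50 CPM; the cause was not tested.

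With 1 library per genotype, intervals leave out the spread between animals and captures. In myoid, macrophage-like and wild-type germ cells, most UMIs of *Cst9*, *Cst12* and *Cst8* lay in cells that also passed another gate of Sertoli, Leydig or germ cells. Scrublet called 9.53% of wild-type Sertoli cells and 13.4% of the others as doublets. The 12 germ cells and the 30 and 22 macrophage-like cells set the limit for those types.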

Other observations

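6 stefin-like genes, relatives of *Cstb* (*Stfa1*, *Stfa2*, *Stfa2l1*, *Stfa3*, *Cstdc4* and *Cstdc5*), had most of their UMIs in a handful of cells. The UMIs of *Csta1*, *Csta2* and *Csta3* in those cells were not looked up. Cells with at least 50 UMIs of *S100a8* and *S100a9* together, genes known from neutrophils, numbered 3 in wild type, against 8 in the library labelled knockout. They held 92.0% and 91.6% of all *Stfa1* UMIs, at 9988 CPM (9134 to 10901) and 4662 CPM (4341 to 5002), and *Cstdc5* at 8161 and 3788 CPM. *Cstb* itself was at 79.4 and 120 CPM in these cells, on 4 and 20 UMIs. *Cst12* in single cells of this kind ran from 67.4 over a median of 1500 to 2298 CPM in wild type and from 0 over a median of 0 to 2442 CPM in the library labelled knockout.

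Cells of no gate with at least 10 UMIs of *Cst9* and *Cst12* together numbered 27 in wild type, against 20 in the library labelled knockout. By this choice they were high in both genes, at 1127 and 716 CPM of *Cst9* and 2015 and 1476 CPM of *Cst12*. *Aard*, which the choice did not use, was at 1705 and 1346 CPM and *Cst8* at 116 and 91.0 CPM, and *Amh* was at 159 and 123 CPM, below the limit of 3 UMIs per cell that the gate sets.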
